A study of Mus musculus with 53 samples.

Results

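The genes described here belong to the ATF4 and amino acid response, a program of transcription factors, amino acid enzymes, transporters and stress targets, and their levels were compared across 9 groups of mouse arrays from a model of synovial sarcoma. The list held 35 genes, of which 32 were measured by a probe set carrying a single gene symbol, out of 17097 genes measured in that way. *Mthfd2* was left out because both of its probe sets carried several symbols, and *Pycr1* and *Got1* had no probe set listed under their names. The list was drawn up because several of its genes were lower with the fusion gene *SS18-SSX1* in cultured cells and in tumors, so the differences that led to the choice are described below without a test.

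The cultured cells were eMCs, primary mesenchymal cells taken from the limbs of near-term BALB/c mouse embryos, transduced with an empty retrovirus that carries GFP (4 arrays) or with a retrovirus for FLAG-tagged human *SS18-SSX1* (4 arrays) and collected at 48 h. The tumors grew subcutaneously in BALB/c nude mice, which lack T cells, from eMCs carrying *SS18-SSX1* alone (SS, 12 tumors) or *SS18-SSX1* followed on the same vector by *miR-214* in place of GFP (SS214, 13 tumors). The lines SS40 and SS64 were grown from mouse synovial sarcomas and transfected with *miR-214* or with a negative control (NC), 4 arrays each. A mixture of normal mouse tissues, among them liver, lung, muscle and brain, gave 4 more arrays. The captions of the paper call this mix mouse, while the paper's methods, which list the tissues, call it human. The paper's text also gives the second line another number than the SS64 of the labels, which were followed here. In the transduced groups the transgene came from a retroviral vector that inserts at many places in the genome, and some SS tumors carry insertions at the locus of *miR-214* itself. Each line is a single line, and the eMCs and the lines were grown in different media. The labels do not say that the 4 arrays of a culture or of the tissue mix came from separate cultures, so their spread may be technical, and the tests on the lines measure only the spread between these arrays. The fusion transcript and the mature microRNA were not analysed here.

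ATF4 is a transcription factor made when the translation factor eIF2alpha is phosphorylated, which happens when cells lack amino acids or accumulate unfolded proteins. It binds DNA with partners of the C/EBP family and switches on genes that import amino acids, make serine, asparagine and proline, charge transfer RNAs and feed glutathione synthesis. *Ddit3*, also called CHOP, and *Atf5* act beside it, while *Trib3*, a pseudokinase that is a target of ATF4, dampens its activity. Much of the control of ATF4 lies in translation, so its messenger RNA and its activity need not move together.

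The composite site that ATF4 and C/EBP proteins share has the letters TGATGNAA, and these letters were searched on both strands in the 250 bases before and 50 bases after the annotated start of each gene. RefSeq promoters on mouse build GRCm38.p6 were at hand for 30 of the 35 genes. The motif stood in 10 of the 30 (33.3%), against 4.51% of 27025 genes with a promoter in the same table, and its form TGATGCAA, which is contained in the former, stood in 8 of 30 (26.7%) against 1.03%. The list was written from knowledge of ATF4 targets, so an excess of the motif was built into it. The 2 promoters below, the 250 bases before the start of *Asns* (chr6:7693210-7693459, minus strand) and of *Chac1* (chr2:119350992-119351241, plus strand), are shown because these 2 genes differ widely among the groups, with the match in capitals.

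Asns: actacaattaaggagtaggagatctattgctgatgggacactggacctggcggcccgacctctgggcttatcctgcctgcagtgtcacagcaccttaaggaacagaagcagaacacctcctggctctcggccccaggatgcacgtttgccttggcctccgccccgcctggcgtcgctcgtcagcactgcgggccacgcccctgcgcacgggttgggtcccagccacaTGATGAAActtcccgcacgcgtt

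Chac1: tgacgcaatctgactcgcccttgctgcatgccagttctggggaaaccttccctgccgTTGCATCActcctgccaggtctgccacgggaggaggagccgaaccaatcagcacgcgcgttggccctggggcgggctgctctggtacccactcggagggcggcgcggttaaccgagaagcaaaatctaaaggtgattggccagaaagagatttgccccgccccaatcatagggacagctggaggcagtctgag

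In *Asns* the letters begin at position -23 from the start on the strand of the gene, and in *Chac1* at position -193 on the opposite strand, where they read TTGCATCA. The windows below, the match with 20 bases on each side, show the same letters before 5 further measured members, *Slc7a11* (chr3:50443652-50443699, minus strand), *Nupr1* (chr7:126625553-126625600, minus strand), *Herpud1* (chr8:94386297-94386344, plus strand), *Jdp2* (chr12:85599363-85599410, plus strand) and *Vldlr* (chr19:27216800-27216847, plus strand).

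Slc7a11: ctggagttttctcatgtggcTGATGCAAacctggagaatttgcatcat
Nupr1: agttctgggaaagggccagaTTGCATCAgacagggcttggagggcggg
Herpud1: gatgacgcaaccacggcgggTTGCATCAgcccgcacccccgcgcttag
Jdp2: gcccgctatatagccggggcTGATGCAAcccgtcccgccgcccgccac
Vldlr: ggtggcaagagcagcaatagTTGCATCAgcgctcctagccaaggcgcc

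*Slc7a11* held a second match, on the opposite strand at position -47, and the match of *Trib3* began at position 14, after its start. A match is a description of the letters and not a site shown to be bound, and no match in the other members says only that these letters are not in this window. Of the measured members, 8 had a match, and they are described with the others below.

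Intensities of each probe set were put on the log2 scale above a floor of 3.55 (an intensity of 11.7), and a level is given as this log2 intensity. Probe sets differ in brightness, so levels are compared between groups and not between genes. *Atf4* was bright on every array and its levels fell into a narrow range. It stood at 10.89, 10.92, 10.90 and 10.85 in the eMCs with the empty vector and at 10.63, 10.61, 10.58 and 10.70 in the eMCs with *SS18-SSX1*. It ran from 9.53 to 10.03 (median 9.80) in SS tumors, from 9.75 to 10.30 (median 10.02) in SS214 tumors and from 9.87 to 9.95 in the tissue mix. The lines lay between 10.53 and 10.82, close to the eMCs with *SS18-SSX1* and above every tumor. The order of the group means ran from eMCs with the empty vector down to the SS tumors, with a difference of 1.10 between these ends, and the 4 groups of lines and the eMCs with *SS18-SSX1* overlapped one another.

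*Ddit3* was lowest in the tissue mix, at 6.76, 7.01, 6.81 and 6.70. It stood between 8.54 and 8.66 in the eMCs with the empty vector and between 8.31 and 8.45 in those with *SS18-SSX1*, and it ran from 7.34 to 8.10 (median 7.83) in SS tumors and from 7.48 to 8.91 (median 8.36) in SS214 tumors. The lines with NC lay at 7.81 to 8.10 (SS40) and 8.09 to 8.22 (SS64). *Atf5* stood at 9.23 to 9.33 in the eMCs with the empty vector and at 8.61 to 8.69 with *SS18-SSX1*. Its SS tumors ran from 8.14 to 9.03 (median 8.69) and overlapped the tissue mix (8.46 to 8.55), and its SS214 tumors ran from 7.99 to 8.75 (median 8.36). The lines differed, at 8.04 to 8.50 in SS40 NC and 9.19 to 9.25 in SS64 NC. *Trib3* separated cultures from tissue, with 8.20 to 8.46 in the eMCs with the empty vector, 7.08 to 7.53 with *SS18-SSX1*, 6.23 to 6.54 over the 8 NC arrays of the lines, 5.12 to 5.55 (median 5.32) in SS tumors, 5.13 to 5.76 (median 5.63) in SS214 tumors and 5.30 to 5.41 in the tissue mix.

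**Figure D1:**
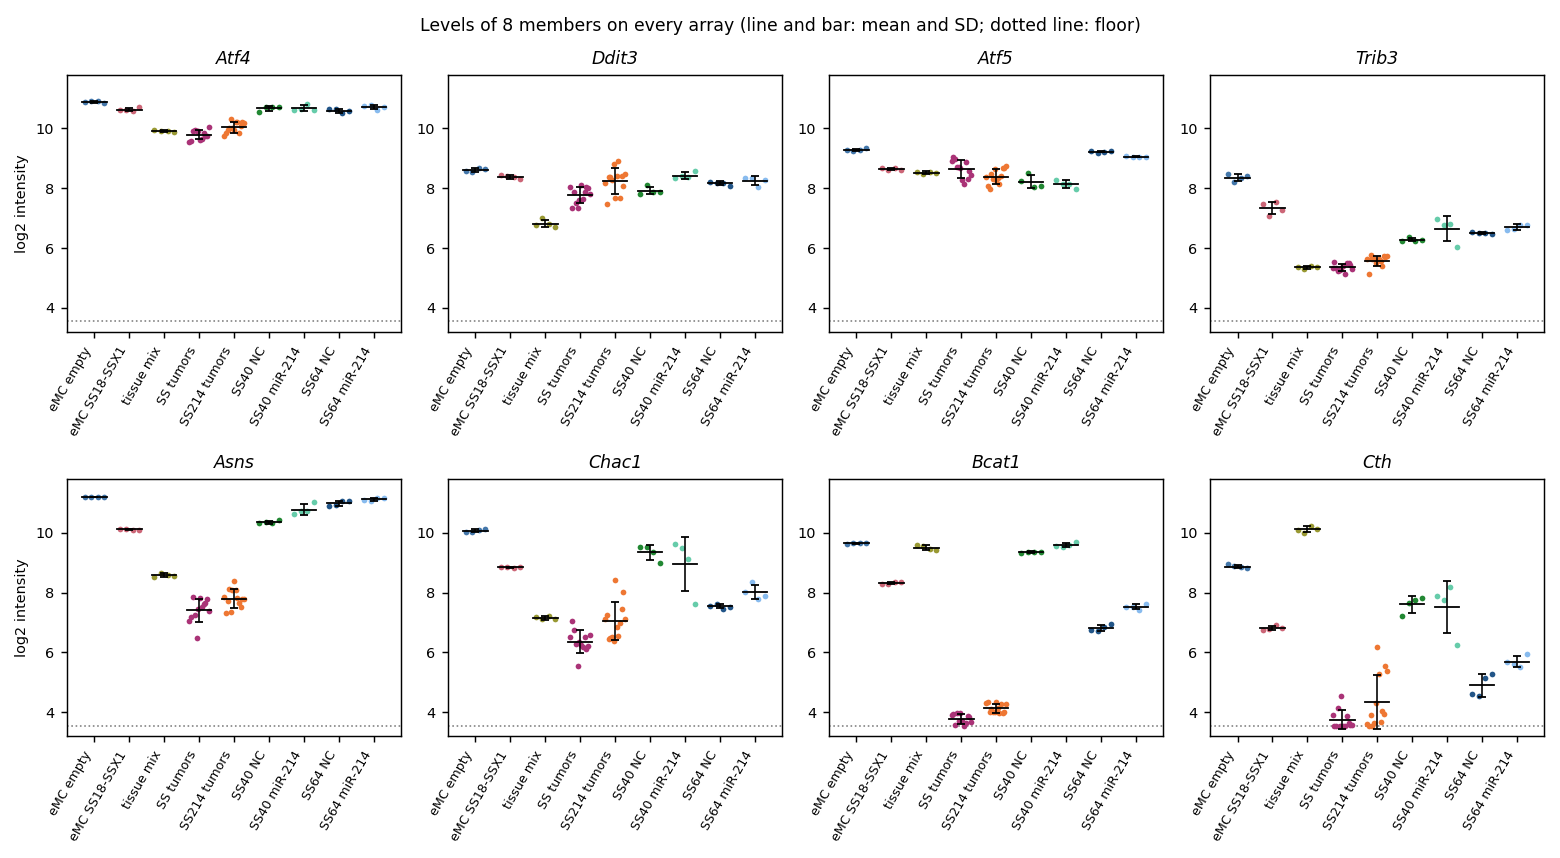
Log2 intensity (y axis) of *Atf4*, *Ddit3*, *Atf5*, *Trib3*, *Asns*, *Chac1*, *Bcat1* and *Cth* in the 9 groups (x axis), 1 point per array, with the group mean as a line, the SD as a bar and the floor of 3.55 as a dotted line. *Atf4* varied little, while *Bcat1* and *Cth* lay near the floor in SS tumors and well above it in the eMCs and in SS40.

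The libraries of 3 groups need a remark before the comparisons. SS tumors 24 and 29 differed by an SD of 0.116 over 12760 bright probe sets, within the range of 0.0879 to 0.145 seen between replicates of the eMCs and of the tissue mix, while other SS tumors differed by up to 0.484. They were kept apart, and results that change when they are averaged are named. In SS40, NC replicate 2 and *miR-214* replicate 4 stood away from their groups. The log2 ratio between the 3′ and 5′ control probe sets of *Gapdh*, which rises as RNA shortens, was 0.326 to 1.432 (median 0.884) in SS tumors, against -0.045 to 0.483 (median 0.034) in SS214 tumors and -0.015 to 0.064 in the eMCs with the empty vector. The median intensity of an array lay between 22.5 and 26.9, not far above the floor, and the number of arrays limits the precision of every value. Of 9 mesenchymal markers, *Col1a2* was at the floor on all SS and SS40 NC arrays, and the summed intensity of the list was 14770 to 15327 in the eMCs with the empty vector and 8565 to 16033 in SS tumors.

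In eMCs, most of the response was lower 48 h after *SS18-SSX1*, with the largest differences in amino acid enzymes and transporters and small ones in *Atf4* itself. With no overlap between the groups and a difference of more than 2-fold, 9 of the 32 members were lower and none was higher, where 0.920% of the 15328 genes above the floor were lower by this rule and 2.73% higher. Since the list was chosen on this difference, nothing is read from the count. With no overlap and any fold, 29 members were lower and 2 higher, beside 18.4% and 28.0% of all genes. The median difference of the members was -0.77, and that of all genes was 0.00.

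*Cth*, which makes cysteine from cystathionine, had the largest difference. It stood at 8.94, 8.89, 8.84 and 8.81 with the empty vector and at 6.74, 6.78, 6.91 and 6.81 with *SS18-SSX1*, a 4.17-fold lower level. *Slc7a3*, an importer of arginine and lysine, stood at 8.57 to 8.63 and at 6.75 to 6.82, which is 3.50-fold lower. *Aldh1l2*, the mitochondrial 10-formyltetrahydrofolate dehydrogenase, went from 9.58 to 9.68 with the empty vector to 8.00 to 8.11, 3.03-fold lower. *Bcat1*, the cytosolic branched-chain aminotransferase, was at 9.62 to 9.66 against 8.27 to 8.36, and *Gpt2*, the mitochondrial alanine aminotransferase, at 8.41 to 8.56 against 7.22 to 7.35. The SD within each group was at most 0.08 for these 5 genes, and no array of one group reached the other. *Chac1*, which degrades glutathione, was at 10.01, 10.03, 10.08 and 10.13 against 8.84, 8.87, 8.83 and 8.84. *Asns*, asparagine synthetase, was at 11.18 to 11.20 against 10.10 to 10.12, 2.11-fold lower. *Aldh18a1*, which begins the synthesis of proline from glutamate, was at 7.68 to 7.73 against 6.53 to 6.81, and *Trib3* was 2.02-fold lower.

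By role, the 6 measured enzymes other than those of serine and one-carbon metabolism had a median difference of -1.14, the 5 transporters -0.93, the 5 other stress targets -0.86, the 5 serine, glycine and one-carbon enzymes -0.79, and the 11 transcription factors and brakes -0.26. The serine enzymes *Phgdh*, *Psat1* and *Psph* were lower by 1.73-, 1.46- and 1.76-fold. *Atf4* was lower by 1.20-fold, *Ddit3* by 1.16-fold and *Atf5* by 1.56-fold. *Cbs*, which makes cystathionine, lay near the floor (3.95 to 4.18) in both groups, which overlapped. The 2 members that were higher were *Slc7a11*, the cystine importer, at 4.32 to 4.60 with the empty vector and 4.84 to 5.13 with *SS18-SSX1*, and *Cebpb*, a C/EBP partner of ATF4, at 10.39 to 10.50 and 10.71 to 10.80. *Ddit4*, a brake on growth signaling, differed by -0.05 with levels of 9.13 to 9.18 and 9.06 to 9.12. The 8 measured members with the motif had a median difference of -0.88, with 7 lower, *Slc7a11* higher and no overlap in any, beside a median of -0.60 in the 19 measured members whose promoters lacked it, of which 17 were lower and 1 was higher. The differences ran from -1.22 to 0.54 with the motif and from -1.32 to 0.32 without it. The 5 members with no promoter at hand were in neither group. They were *Slc7a5*, *Eif4ebp1* and the members with the largest falls, *Cth*, *Slc7a3* and *Aldh1l2*. These differences were part of what chose the list and were not tested.

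Genes of the same pathway outside the list had smaller median differences. The members were chosen on this difference and these genes were not, so nothing is read from that. Of 17 measured aminoacyl-tRNA synthetases, which charge transfer RNAs, 12 were lower without overlap and 1 higher, with a median of -0.43 and *Iars* lowest at -0.78, and none passed 2-fold. Of 9 other amino acid transporters, 7 were lower and none higher (median -0.17). Of 7 kinases and phosphatases of eIF2alpha, 4 were lower and 3 higher (median -0.15). Of 11 other ATF4 targets, 6 were lower and 1 was higher, *Atf3*, a stress factor of the same family, which stood at 7.45 to 7.56 with the empty vector and 9.20 to 9.43 with *SS18-SSX1*, the opposite direction to most members. These lists overlap, here and below. *Nars* counts as a synthetase and as an ATF4 target, and *Ppp1r15a* as an eIF2alpha phosphatase gene and as an ATF4 target.

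Markers of other cell types moved in the same arrays. All 12 cartilage markers were lower with *SS18-SSX1*, without overlap, and their summed intensity was 37678 to 38473 with the empty vector and 21197 to 21610 with the fusion gene. All 10 endothelial markers were higher (294 to 313 against 1280 to 1343), with *Tie1* at the floor with the empty vector, as were 7 of 8 granulocyte markers (475 to 525 against 4248 to 4352) and 6 of 7 mast cell markers (103 to 122 against 1550 to 1582). Their part in the differences of the members was not tested. In bulk samples, fewer cells of a type and less RNA per cell cannot be told apart.

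**Figure D2:**
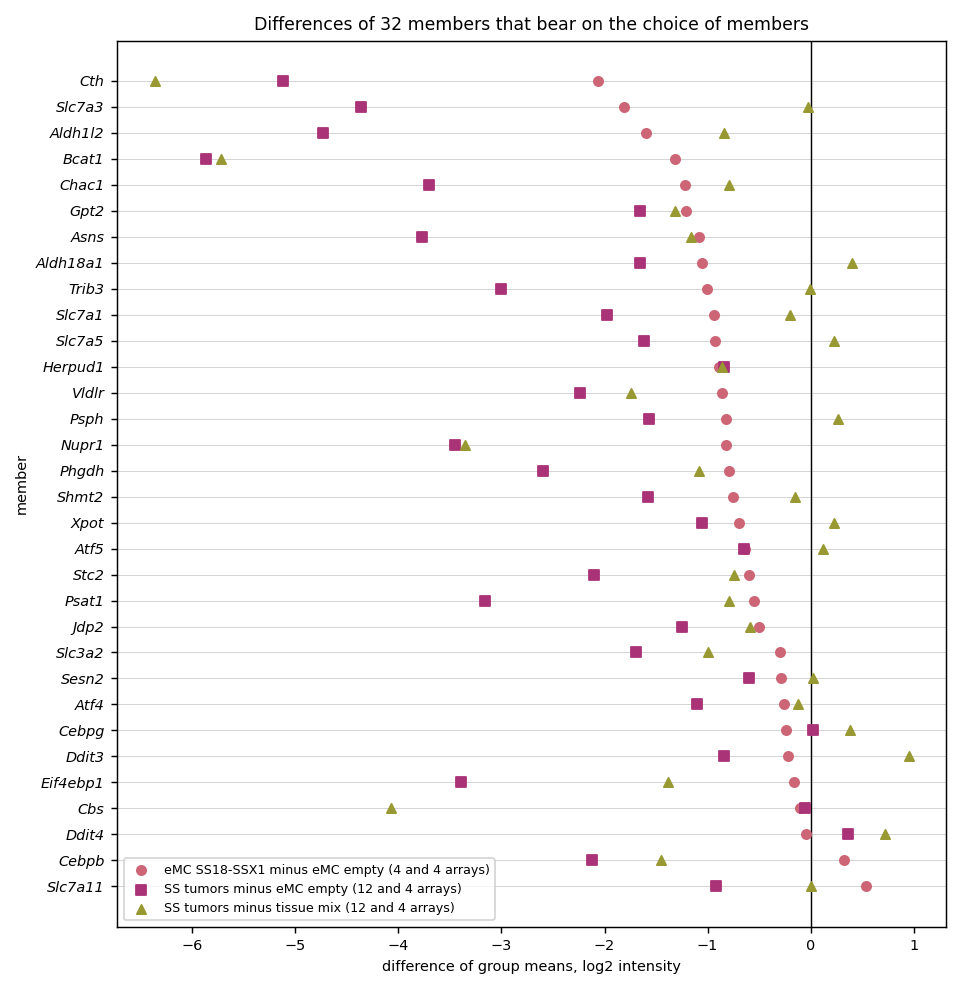
Difference of group means on the log2 scale (x axis) of each measured member (y axis, ordered by the eMC difference) for eMCs with *SS18-SSX1* minus empty vector (circles), SS tumors minus eMCs with the empty vector (squares) and SS tumors minus tissue mix (triangles). The circles run from -2.06 for *Cth* to 0.54 for *Slc7a11*, and the squares reach -5.86 for *Bcat1*.

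SS tumors stood below the eMCs with the empty vector in most of the response, and 24 of the 32 members were lower by more than 2-fold without overlap and none was higher, beside 8.29% of 15625 genes lower and 14.0% higher by that rule. The tumors share their control arrays with the comparison above, and the tumor difference also bore on the choice of members, so nothing is read from the count. By any fold without overlap, 29 members were lower and none higher, beside 23.4% and 25.8% of all genes. The median of the members was -1.68, and that of all genes was -0.03. Against the eMCs with *SS18-SSX1*, 17 members were lower in SS tumors by the 2-fold rule and none higher, beside 9.52% and 12.5% of 15512 genes, with a median of -1.21. *Bcat1* was 23.2-fold, *Eif4ebp1* 9.41-fold and *Aldh1l2* 8.79-fold lower in that comparison, and *Atf5* and *Herpud1*, which differed by -0.01 and 0.05, overlapped.

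*Bcat1* ran from 3.55 to 3.99 (median 3.77) in the SS tumors, with tumor 27 at the floor, against 9.62 to 9.66 in the eMCs, a 58.1-fold lower level. Its other, dimmer probe sets differed less, by -3.03 and -0.89 on the log2 scale. *Cth* was at the floor in 5 of 12 tumors and reached 4.55 (median 3.56), a 34.8-fold lower level. *Aldh1l2* ran from 4.35 to 5.32 (median 4.92) and was 26.6-fold lower, and *Slc7a3* from 4.08 to 4.42 (median 4.22) and was 20.5-fold lower. In these 4 genes the tumors came close to the floor, so these folds depend on where it was set. *Asns* remained well above the floor at 6.49 to 7.84 (median 7.47) and was 13.6-fold lower. *Chac1* ran from 5.53 to 7.06 (median 6.31), 13.0-fold lower, *Nupr1*, a stress-induced chromatin protein, from 4.82 to 7.15 (median 5.67), 10.9-fold lower, and *Eif4ebp1*, which restrains translation, from 6.62 to 8.37 (median 7.35), 10.5-fold lower. *Psat1* was 8.95-fold, *Trib3* 7.98-fold and *Phgdh* 6.05-fold lower. *Atf4* was 2.14-fold lower and *Ddit3* 1.79-fold.

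Not every member was lower in the tumors. *Ddit4* ran from 9.10 to 10.25 (median 9.38) and overlapped the eMCs (9.13 to 9.18), *Cebpg* ran from 8.34 to 9.03 (median 8.72) against 8.61 to 8.82, and *Cbs* stayed near the floor in both. *Slc7a11* was at the floor on all 12 tumor arrays and was at least 1.89-fold lower than in the eMCs. *Cebpb*, which was higher in the eMCs with *SS18-SSX1*, ran from 7.88 to 8.79 (median 8.40) in the tumors and was 4.33-fold lower than in the eMCs with the empty vector. All 5 measured serine, glycine and one-carbon enzymes, 5 of 6 other amino acid enzymes, 4 of 5 transporters, 4 of 5 other stress targets and 6 of 11 factors and brakes passed the 2-fold rule. Of the genes outside the list, 7 of 9 other transporters and 5 of 17 synthetases passed it, and none of 7 eIF2alpha kinases and phosphatases, of which 3 were higher without overlap and 1 lower.

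The tissue mix gave a different reference, but the tumor levels bore on the choice of members, so nothing is read from the counts. Of the members, 31 were above the floor in enough arrays, and 10 of these were lower in SS tumors by more than 2-fold without overlap and none was higher, beside 12.7% and 11.1% of 15679 genes. By any fold without overlap, 16 were lower and 3 higher, beside 20.5% and 27.9%. *Cth*, at 9.99 to 10.22 in the mix, was 82.1-fold lower in the tumors, *Bcat1* (9.41 to 9.58 in the mix) 52.8-fold and *Cbs* (7.77 to 8.31) 16.8-fold. The other probe sets of *Bcat1* differed from the mix by -2.08 and -1.02. *Nupr1* was 10.2-fold lower, *Vldlr*, a lipoprotein receptor, 3.35-fold, *Cebpb* 2.74-fold, *Eif4ebp1* 2.60-fold and *Gpt2* 2.49-fold. *Trib3*, *Slc7a3*, *Atf4* and *Atf5* overlapped the mix, with differences of -0.01, -0.03, -0.12 and 0.12. The members furthest above the mix were *Ddit3* (0.95), *Ddit4* (0.72) and *Aldh18a1* (0.40), which did not overlap it, and *Cebpg* (0.38), which did. In SS214 tumors, 5 members were lower than the mix by the 2-fold rule, *Cth*, *Bcat1*, *Cbs*, *Nupr1* and *Slc3a2*, and 2 were higher, *Ddit3* (1.42) and *Ddit4* (1.15), beside 11.7% and 9.98% of 15824 genes. The mix held liver markers at a summed intensity of 36471 to 38580, against 391 to 3105 in SS tumors and 147 to 159 in the eMCs with the empty vector, and the part of this in the high *Cth* and *Cbs* of the mix was not tested.

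The tumors also differed from the eMCs in their other cells and in RNA length. All 12 cartilage markers were lower and all 10 skeletal muscle markers higher in SS tumors than in the eMCs, with muscle summing to 12964 to 54723 against 537 to 588. Mast cell markers were higher in 6 of 7 cases, and their sum was 485 to 2563 against 103 to 122. The ratio of the *Gapdh* probe sets was higher in every SS tumor than in every eMC array. The SS214 tumors had a median ratio of 0.034. In them, 21 of 32 members were lower than in the eMCs by the 2-fold rule and none higher. These counts stand beside 6.62% and 11.6% of 15702 genes, and the median of the members was -1.81. The eMC arrays bore on the choice of members, so nothing is read from the counts, and the part of RNA length was not tested. *Asns* in SS214 tumors ran from 7.32 to 8.38 (median 7.78), *Bcat1* from 3.97 to 4.34 (median 4.11) and *Aldh1l2* from 4.91 to 5.64 (median 5.08), none of which reached the eMC arrays. The part of muscle and mast cells in these differences was not tested, and growth as a tumor and the presence of host cells cannot be told apart in this design.

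**Figure D3:**
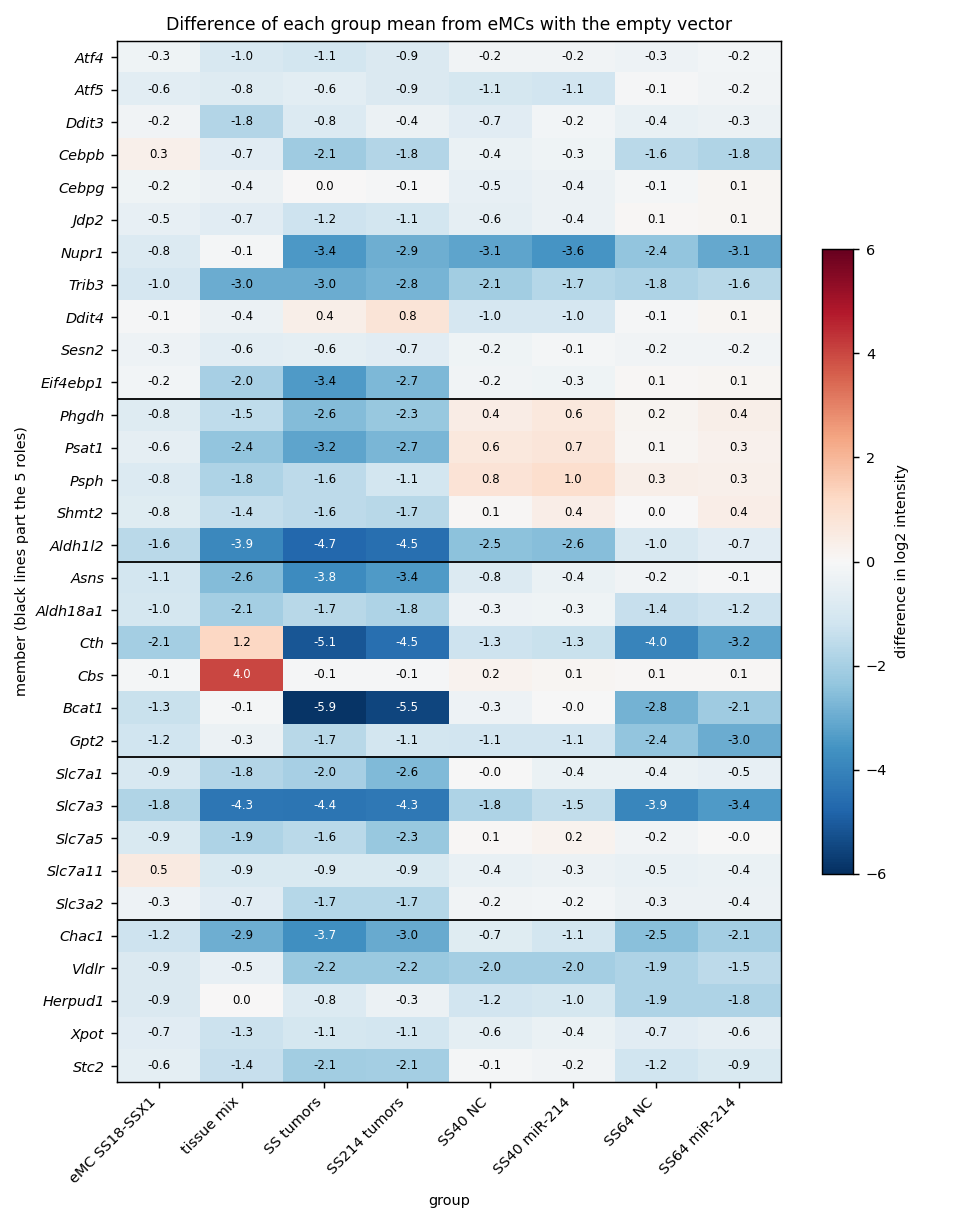
Difference of each group mean from the eMCs with the empty vector (color and printed value, log2 intensity) for the 32 measured members (rows, parted by role) and the other 8 groups (columns). The serine enzymes *Phgdh*, *Psat1* and *Psph* were below the eMCs in both tumor groups and above them in the lines, while *Trib3* and *Nupr1* were below them in tumors and lines alike.

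SS40 and SS64, which are cultured synovial sarcoma cells, stood below the eMCs and above the SS tumors in most members. In SS40 NC, 17 members were higher than in SS tumors by more than 2-fold without overlap and 1 was lower, beside 11.0% and 15.5% of 15619 genes, and in SS64 NC 14 were higher and 1 lower, beside 10.3% and 14.9% of 15645. All 5 measured serine, glycine and one-carbon enzymes were among the higher ones in each line. *Psat1* lay at 10.84 to 11.01 in SS40 NC and 10.42 to 10.49 in SS64 NC, against 6.32 to 7.64 in SS tumors and 10.28 to 10.38 in the eMCs with the empty vector. *Phgdh* lay at 9.25 to 9.74 and 9.03 to 9.35, against 6.18 to 6.80 in SS tumors. *Asns* lay at 10.32 to 10.42 and 10.88 to 11.07. Against the eMCs, 10 members of SS40 NC were lower by the same rule and none higher, beside 8.52% and 8.68% of 15501 genes, and 12 of SS64 NC were lower and none higher, beside 8.64% and 7.45% of 15505. The eMC and SS arrays set beside the lines here bore on the choice of members, so nothing is read from these counts. Cultures and tumors also differ in growth conditions, in the cells they hold and in RNA length, and these cannot be told apart by the design.

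The difference between the 2 NC groups, which had no part in the choice of members, was tested. The lines differed in most of the response. In SS64, 10 members were higher and 13 lower at an adjusted p under 0.05 in limma, of 32 tested, beside 22.1% and 26.4% of 15474 genes, so that the 23 members stand beside 48.5% of all genes that differed in either direction. At an unadjusted p under 0.05 there were 24 members, beside 54.0% of all genes. *Aldh1l2* lay at 6.87, 6.96, 7.46 and 7.43 in SS40 and at 8.51, 8.66, 8.73 and 8.74 in SS64, a change of 1.48 ± 0.13 (SE, adjusted p = 4.75e-06). *Atf5* was higher in SS64 by 1.00 ± 0.09 (adjusted p = 5.31e-06). *Ddit4* was higher by 0.94, *Nupr1* by 0.78, *Asns* by 0.63 and *Jdp2*, a repressor related to ATF4, by 0.62. *Atf4* itself differed by -0.08 ± 0.05 and did not pass (adjusted p = 0.278). The SS40 and SS64 ranges of *Aldh1l2*, *Atf5*, *Ddit4*, *Nupr1*, *Asns* and *Jdp2* did not overlap.

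The lower members in SS64 were led by *Cth*, at 7.20, 7.64, 7.76 and 7.82 in SS40 and 4.62, 4.53, 5.15 and 5.29 in SS64, a change of -2.71 ± 0.19 (adjusted p = 5.77e-07). *Bcat1* was at 9.31 to 9.37 in SS40 and 6.73 to 6.96 in SS64, with a change of -2.52 ± 0.07 (adjusted p = 1.78e-10). *Slc7a3* differed by -2.07, *Chac1* by -1.80, and *Cebpb* and *Gpt2* by -1.24 each. Ranges did not overlap in these 6 genes. *Ddit3* (0.24) and *Trib3* (0.23) passed with all arrays, but neither did without SS40 replicate 3 or 4 or without SS64 replicate 1, 2 or 3, nor *Trib3* without SS40 replicate 1. Outside the list, 10 of 17 synthetases were lower in SS64 and 1 was higher, and 3 of 7 eIF2alpha kinases and phosphatases went each way.

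SS214 tumors were compared with SS tumors to ask what *miR-214* from the vector added to the fusion gene. The paper reports raised *miR-214* in the SS tumors with insertions at its locus. Those tumors are among the SS arrays compared here, and no fit left them out. The comparison is therefore not one of tumors with *miR-214* against tumors without it, and the part of these SS tumors in the changes was not tested. Several members were modestly higher in SS214 tumors, among them 3 serine enzymes and *Asns*, and 2 transporters were lower. The tumor groups also differed in the *Gapdh* ratio, and with it as a covariate the changes of *Psph* (0.33 ± 0.26), *Psat1* (0.29 ± 0.27), *Phgdh* (0.43 ± 0.22), *Asns* (0.27 ± 0.25) and *Slc7a1* (-0.68 ± 0.21) no longer passed, with adjusted p of 0.456, 0.548, 0.22, 0.546 and 0.054. Of 31 members tested, 13 rose and 3 fell at an adjusted p under 0.05, beside 22.6% and 17.3% of 15644 genes, and none changed by 2-fold. The 16 that passed stand beside 39.9% of all genes, and 19 had an unadjusted p under 0.05 beside 48.4%. *Slc7a11* was at the floor on all 25 arrays and was not tested. The median change of the members was 0.23 and that of all genes 0.04. The SS arrays bore on the choice of members, partly for low levels in tumors, so this test is not independent of that choice. It may lean toward higher levels in SS214 tumors, and nothing is read from the counts.

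The microRNA added, from chromosome 1 of mouse build GRCm38.p6, gives 2 mature strands, the 5p strand at chr1:162223397-162223418 and the 3p strand at chr1:162223438-162223459, both on the plus strand. They are shown with their seeds, bases 2 to 8, in capitals.

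mmu-miR-214-5p: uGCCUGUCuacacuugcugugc
mmu-miR-214-3p: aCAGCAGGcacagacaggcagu

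*Eif4ebp1* ran from 6.62 to 8.37 (median 7.35) in SS tumors and from 7.00 to 9.75 (median 8.01) in SS214 tumors, and rose by 0.71 ± 0.26 (SE, adjusted p = 0.0346). *Chac1* rose by 0.68 ± 0.20 (adjusted p = 0.0085), from a median of 6.31 to one of 6.98. SS214 tumor 7 had the highest level of both genes, and every member that rose overlapped between the groups. *Gpt2* rose by 0.57 ± 0.22, *Psph*, the last enzyme of serine synthesis, by 0.50 ± 0.14, *Herpud1*, a membrane protein of the endoplasmic reticulum, by 0.50 ± 0.09 and *Ddit3* by 0.48 ± 0.14. *Herpud1* ran from 8.39 to 8.96 in SS tumors and from 8.84 to 9.62 in SS214 tumors, and shared only the range from 8.84 to 8.96. *Psat1*, *Phgdh*, *Asns*, *Ddit4*, *Bcat1*, *Atf4* (0.25 ± 0.07) and *Trib3* (0.23 ± 0.07) also rose, by 0.43 at most. *Bcat1* lay near the floor of 3.55 in both groups, with means of 3.78 and 4.13, and its other probe sets changed by 0.02 and 0.00. With the floor at the 40th percentile its change was 0.06 and did not pass (adjusted p = 0.0611).

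The members that fell were transporters and a proline enzyme. *Slc7a1*, an importer of arginine and lysine, ran from 7.67 to 8.14 (median 7.95) in SS tumors and from 6.52 to 7.72 (median 7.43) in SS214 tumors, and fell by 0.66 ± 0.12 (adjusted p = 9.58e-05). *Slc7a5*, an importer of leucine and other large amino acids, ran from 7.45 to 8.20 (median 8.01) and from 7.05 to 7.75 (median 7.19), and fell by 0.65 ± 0.09 (adjusted p = 7.68e-06). *Aldh18a1* fell by 0.19 ± 0.07 (adjusted p = 0.0348). *Slc3a2*, the partner chain of *Slc7a5*, changed by -0.03 ± 0.10 and did not pass (adjusted p = 0.822). *Atf5* changed by -0.24 ± 0.11 (adjusted p = 0.0698). The groups of *Slc7a1* shared the range from 7.67 to 7.72, and those of *Slc7a5* the range from 7.45 to 7.75.

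Of 17 synthetases, 5 rose and 6 fell, of 9 other amino acid transporters 2 rose and 1 fell, and of 11 other ATF4 targets 3 rose (*Atf3*, by 0.85 ± 0.32, *Gadd45a*, by 0.69 ± 0.19, and *Fgf21*, by 0.13 ± 0.05) and 2 fell. Of 7 eIF2alpha kinases and phosphatases, *Eif2ak1* (-0.49 ± 0.10) and *Eif2ak3* (-0.49 ± 0.18) fell and none rose.

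The tumor groups also differed in RNA length and in marker RNA of other cells. With the *Gapdh* ratio as a covariate, 3 members passed, *Bcat1* (0.42 ± 0.11), which was close to the floor, and *Herpud1* (0.58 ± 0.16) higher and *Slc7a5* (-0.62 ± 0.17) lower, and the other 13 did not. The ranges of the ratio in the tumor groups shared only the stretch from 0.326 to 0.483, so the ratio and the group are hard to tell apart, and its part in the changes is not settled by this fit. All 8 granulocyte markers rose (a summed intensity of 169 to 4939 in SS and 359 to 18004 in SS214), with 6 of 10 macrophage markers (785 to 7586 and 1849 to 7984) and 2 of 4 lung markers (49 to 137 and 55 to 4778). None of these 3 lists had a marker at the floor on all arrays of either group. The paper counted CD163-positive macrophages and esterase-positive granulocytes and found no difference between tumors with and without *miR-214*. Those are counts of cells, while the markers here are RNA. With the mean level of the lung list as a covariate, 11 members passed, now with *Atf5*, and *Chac1*, *Eif4ebp1*, *Gpt2*, *Phgdh*, *Psat1* and *Trib3* no longer did. Without the SS214 tumors numbered 13 to 16, 14 passed, now with *Atf5*, and *Chac1*, *Eif4ebp1* and *Gpt2* no longer did. With SS tumors 24 and 29 averaged, 14 passed, now with *Aldh1l2* and *Atf5*, and *Aldh18a1*, *Eif4ebp1*, *Gpt2* and *Phgdh* no longer did. The share of all genes that passed was not counted for these alternative fits. The part of granulocytes and macrophages was not tested.

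**Figure D4:**
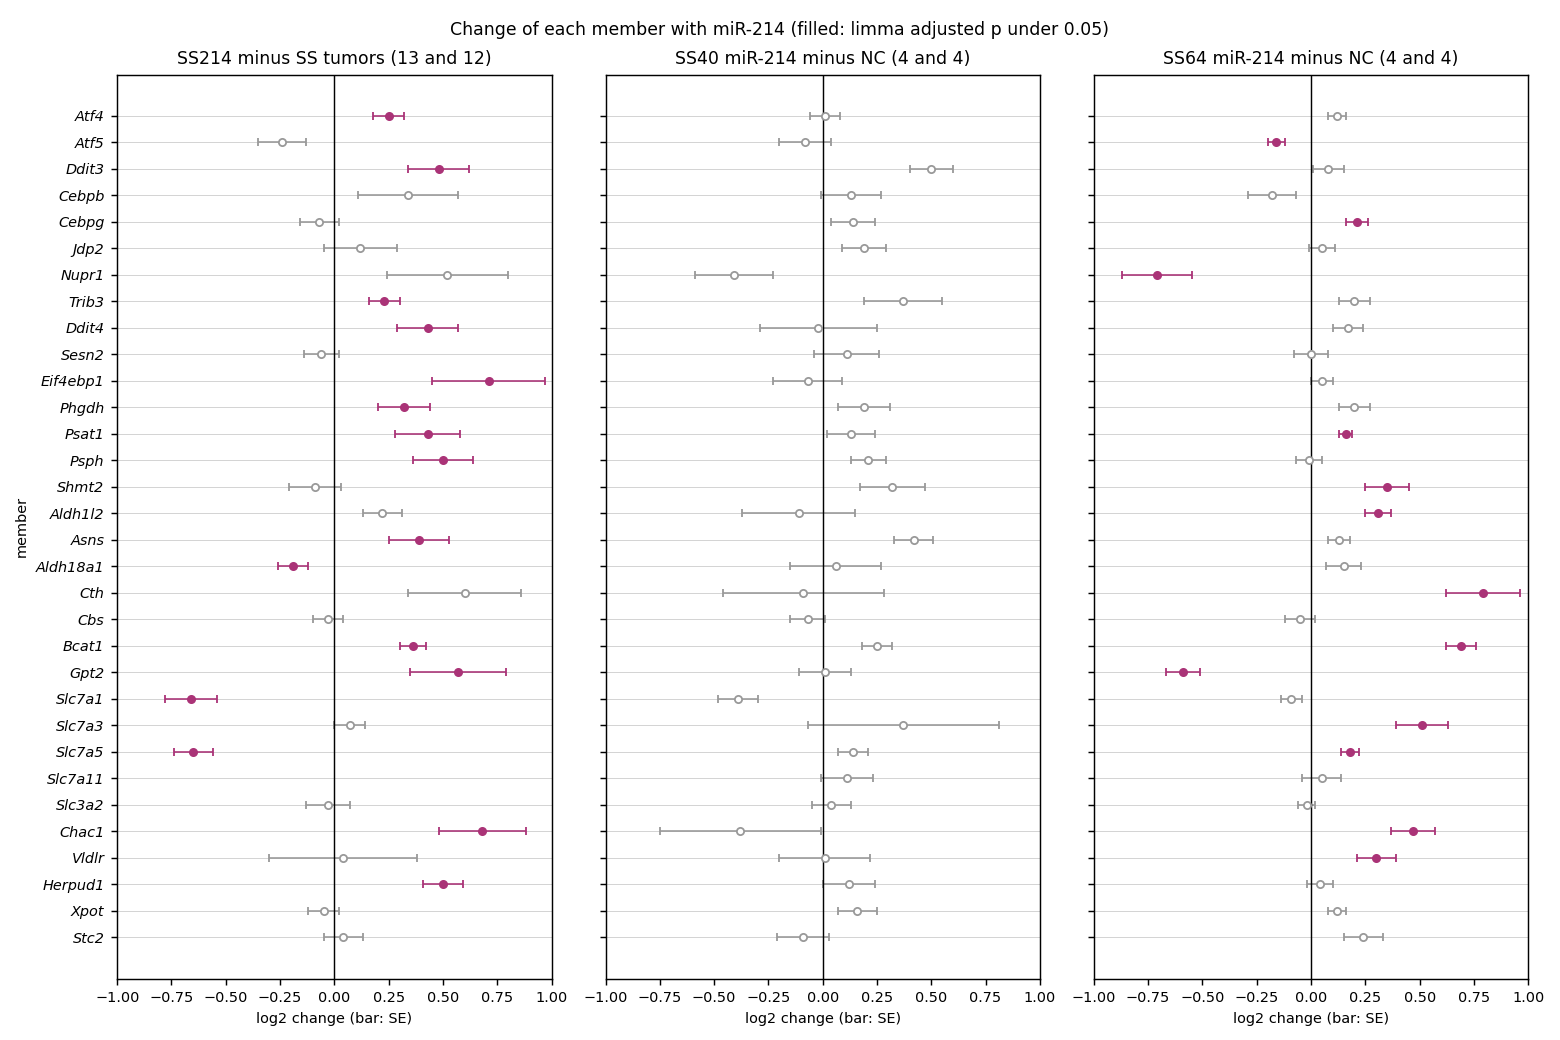
Change of each member (y axis) on the log2 scale with its SE as a bar (x axis) in SS214 against SS tumors, in SS40 with *miR-214* against NC and in SS64 with *miR-214* against NC, with points filled where limma gave an adjusted p under 0.05. The filled points number 16, 0 and 13, and *Slc7a11* has no point in the tumors, where it was at the floor.

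In SS40, no member passed with *miR-214* in limma, beside 1.03% of 15443 genes, and the t-test named in the study's methods, after adjustment, gave none either. At an unadjusted p under 0.05 there were 6 members, beside 11.4% of all genes. *Ddit3* lay at 7.81, 8.10, 7.89 and 7.89 with NC and at 8.33, 8.40, 8.38 and 8.59 with *miR-214*, a change of 0.50 ± 0.10 (adjusted p = 0.0682). *Asns* changed by 0.42 ± 0.09 (adjusted p = 0.0986), *Slc7a1* by -0.39 ± 0.09 (adjusted p = 0.123) and *Bcat1* by 0.25 ± 0.07 (adjusted p = 0.235), and the 2 groups of each of these 4 genes did not overlap. *Atf4* changed by 0.01 ± 0.07, *Atf5* by -0.08 ± 0.12 and *Trib3* by 0.37 ± 0.18.

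This count hung on a single array. Replicate 4 with *miR-214* was the lowest of its group in *Slc7a3* (5.47 beside 7.59 to 7.71), *Chac1* (7.63 beside 9.11 to 9.61), *Cth* (6.23 beside 7.75 to 8.20) and *Ddit4* (7.12 beside 8.41 to 8.46). Without it, 7 members passed, with *Slc7a3* (0.92), *Trib3* (0.57), *Ddit3* (0.44), *Asns* (0.33) and *Ddit4* (0.31) higher and *Nupr1* (-0.60) and *Slc7a1* (-0.33) lower. The same 7 genes passed when NC replicate 2 was left out as well. The share of all genes that passed without these arrays was not counted, so the 7 cannot be set beside it.

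In SS64, 10 members rose with *miR-214* and 3 fell, of 32 tested, beside 4.90% and 8.02% of 15403 genes. The 13 stand beside 12.9% of all genes, and 20 had an unadjusted p under 0.05 beside 25.2%. The median change of the members was 0.13, and that of all genes was -0.01. *Cth* lay at 4.62, 4.53, 5.15 and 5.29 with NC and at 5.69, 5.62, 5.51 and 5.93 with *miR-214*, and rose by 0.79 ± 0.17 (adjusted p = 0.0108). *Bcat1* lay at 6.75, 6.73, 6.85 and 6.96 and at 7.52, 7.52, 7.41 and 7.61, and rose by 0.69 ± 0.07 (adjusted p = 0.000104). *Slc7a3* rose by 0.51 ± 0.12, *Chac1* by 0.47 ± 0.10, *Shmt2*, the mitochondrial serine hydroxymethyltransferase, by 0.35 ± 0.10 and *Aldh1l2* by 0.31 ± 0.06. *Vldlr* (adjusted p = 0.04998), *Cebpg*, *Slc7a5* and *Psat1* rose by 0.30 or less, and the other 4 probe sets of *Vldlr* changed by -0.24 to 0.01. With the mean over its probe sets, *Vldlr* changed by -0.03 and did not pass. When single arrays were left out in turn, *Vldlr* passed in none of the 8 cases, and *Shmt2* failed to pass in 7 of 8, *Atf5* in 5, *Slc7a5* in 4 and *Slc7a3* in 1, while the other 8 members passed each time. Among the 13 members that passed, the NC and *miR-214* arrays did not overlap.

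*Nupr1* lay at 7.15, 7.07, 6.47 and 6.63 with NC and at 6.24, 6.35, 5.88 and 6.00 with *miR-214*, and fell by 0.71 ± 0.16 (adjusted p = 0.0129). *Gpt2* fell by 0.59 ± 0.08 (adjusted p = 0.000887) and *Atf5* by 0.16 ± 0.04 (adjusted p = 0.0208). *Atf4* changed by 0.12 ± 0.04 (adjusted p = 0.118), *Ddit3* by 0.08 ± 0.07 and *Trib3* by 0.20 ± 0.07 (adjusted p = 0.127). When same-numbered arrays were paired by a block in the fit, 16 members passed, now with *Atf4*, *Asns* and *Phgdh*. In a fit of all 53 arrays, where tumors and cultures share 1 estimate of the spread, *Bcat1* alone passed, and without NC replicate 1, 8 members did. By the methods' t-test after adjustment *Chac1*, *Cth*, *Nupr1*, *Shmt2*, *Slc7a3* and *Vldlr* did not pass. For these alternatives the share of all genes that passed was not counted. Of the synthetases, 10 of 17 rose and none fell, with *Rars* (0.33 ± 0.04) and *Iars* (0.33 ± 0.07) highest. Of 11 other ATF4 targets 3 rose and 2 fell, *Mthfd1l* by 0.82 ± 0.05 and *Gadd45a* by 0.65 ± 0.05. *Eif2ak1* fell by 0.37 ± 0.08, the sole gene of its list to pass.

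The mesenchymal markers were high in both lines, summing to 10510 to 11989 over the 4 groups. With *miR-214*, 1 of 9 rose and 3 fell in SS64, where 1 macrophage and 1 skeletal muscle marker also fell, and 1 mesenchymal marker rose in SS40. The part of these in the members' changes was not tested. Of the cartilage, granulocyte, mast cell, endothelial, liver, kidney and lung lists, no gene passed with *miR-214* in either line, with granulocyte markers summing to 202 to 228 with NC and 186 to 217 with *miR-214* in SS64, and *Cdh5*, a defining endothelial marker, at the floor in all 4 groups.

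The difference between the lines in the change with *miR-214* was itself tested. It passed for 1 of 32 members, *Bcat1*, beside 0.872% of 15828 genes. Its change was 0.69 in SS64 and 0.25 in SS40, a difference of 0.44 ± 0.10 (adjusted p = 0.0487, range 0.0101 to 0.657 over the alternatives). The call was lost in 17 of 24 alternatives, with no floor, the mean over probe sets, the fit of all arrays, the replicate block and the leaving out of 13 of the 16 arrays, each in turn. The difference itself stayed at 0.41 to 0.49 whichever array was left out, and it was 0.19 with the mean over probe sets. *Gpt2* (-0.60 ± 0.14, adjusted p = 0.0681) and *Ddit3* (-0.42 ± 0.12, adjusted p = 0.208) did not pass. At an unadjusted p under 0.05 there were 7 members, beside 10.2% of all genes.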

How the data were processed

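The authors hybridised labelled RNA to a GeneChip mouse array and deposited 1 table of linear intensity values for 45141 probe sets and 53 arrays. MAS5 is named in the submitters' processing notes without a version, and how the deposited intensities were scaled is not given in the sources used here. They ranged from 5.36 to 11034. The platform annotation gave 28898 probe sets a single symbol (17097 genes), 551 several and 15692 none, and 28689 symbols were updated through the gene ID. The 104 control probe sets were left out of the tests.

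Values under the median over arrays of the 20th percentile (11.7) were set to it, and log2 was taken. Where a gene had several probe sets, the one brightest over all arrays stood for it. Of the 32 measured members, 14 had 1 probe set and 18 several, which disagreed in places, as for *Vldlr* and *Cebpg*. A probe set entered a comparison if it lay above the floor on 4 or more of its arrays. The tests used limma 3.58.1 in R 4.3.3 (lmFit and eBayes with a trend) with the groups of 1 comparison, with Benjamini-Hochberg adjustment over the probe sets that entered. A member passed at an adjusted p under 0.05. Percentages of all genes count 1 probe set per gene. Described differences were called where groups did not overlap and the fold was over 2. The script was tested on simulated data with known changes.

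The members, the gene lists and the comparisons were chosen with earlier results of these data known. The 4 genes *Atf4*, *Ddit3*, *Atf5* and *Trib3* are given in every group, with, in each described comparison, the 8 members lowest and the 4 highest by difference and, in each test, up to 6 that rose and 6 that fell most. Other members named with values, among them the rest of those that passed, were chosen after these were seen. Alternatives were quantile normalization, no floor or one at the 40th percentile (17.8), the mean over probe sets, no filter, 1 fit of all arrays, the methods' t-test, covariates, the replicate number as a block and the leaving out of arrays. Averaging SS tumors 24 and 29, leaving out SS214 tumor 3 and leaving out the 2 SS40 arrays that stood apart were chosen after seeing the data. Same-numbered SS64 arrays of the NC and *miR-214* groups deviated together (r of 0.346, 0.319, 0.221 and 0.283 for numbers 1 to 4), so the numbers may pair them. But NC number 2 went more closely with *miR-214* number 1 (0.376), and NC number 4 with *miR-214* number 3 (0.381). Pairing by number is thus not settled, and the block was kept as an alternative. In SS40 same-numbered arrays deviated together in some numbers and not in others (r of 0.464, -0.281, 0.124 and 0.046), and in the eMCs r was 0.011 to 0.153.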

Additional observations from a re-analysis of the deposited data

Results flagged for a closer look

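In 13 of 223 member and group pairs of 4 arrays or more, up to 10, a single array stood apart from the rest of its group by Dixon's test, which chance gives in about 1 of 20 groups. Replicate 4 of SS40 with *miR-214* was low in 4 of them, *Slc7a3* (5.47, others 7.66 on average), *Ddit4* (7.12, others 8.44), *Aldh1l2* (6.23, others 7.35) and *Eif4ebp1* (9.86, others 10.63). Among the other SS40 arrays, NC replicate 2 was low in *Vldlr* (5.20, others 6.00) and NC replicate 1 in *Atf4* (10.55, others 10.71). Replicate 3 of SS64 with *miR-214* was low in *Gpt2* (5.37, others 5.58). In the eMCs with *SS18-SSX1*, replicate 4 was high in *Phgdh* (8.42, others 8.18) and low in *Stc2* (6.09, others 6.54). In the eMCs with the empty vector, replicate 3 was low in *Shmt2* (7.82, others 7.92) and replicate 4 high in *Slc7a3* (8.63, others 8.58). In the tissue mix, replicate 1 was low in *Ddit4* (8.71, others 8.81) and *Vldlr* (7.11, others 7.41). All are log2 intensities.

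The change of *Bcat1* with *miR-214* differed between SS64 and SS40 by 0.44 on the log2 scale when that difference was tested in limma. It did not pass in 17 of 24 alternatives, namely no floor, the mean over probe sets (0.19), 1 fit of all arrays, the replicate block and 13 of the 16 cases with a single array left out.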

How the results depend on the processing

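Of 1073 alternative values of named tested changes, 6 turned direction. *Vldlr* in SS64, which had passed, changed by -0.03 with the mean over probe sets. The others had not passed, *Atf5* in the tumors (0.04 with the *Gapdh* ratio), *Atf5* in SS40 (-0.14 to 0.02 over the single arrays left out, with 0.02 without NC replicate 2, and 0.07 without both arrays that stood apart) and *Atf4* in SS40 (-0.04 to 0.03 over the single arrays, with -0.04 without NC replicate 1 and without *miR-214* replicate 3). Of 471 described values, 6 turned, all of them small differences of *Cbs*, *Cebpg* and *Trib3*, with *Cebpg* in SS tumors against the eMCs moving from 0.02 to -0.13 with the mean over probe sets. Among the counts of members, 26 of 117 alternative values moved by over 1.5 times. The share of all genes that passed was not counted for the alternatives of the tests, so these counts have none beside them. In SS214 against SS tumors, 16 members passed and 3 did with the *Gapdh* ratio as a covariate. In SS40, where none passed, the mean over probe sets gave 1, leaving out both arrays that stood apart gave 7, and leaving out single arrays gave 0 to 7. In SS64, where 13 passed, no filter gave 8, the methods' t-test 8, 1 fit of all arrays 1, and leaving out single arrays 8 to 13. For the difference between the lines, where 1 passed, no floor gave 0, the floor at the 40th percentile 2, the mean over probe sets 0, 1 fit of all arrays 0, and leaving out single arrays 0 to 2. With the replicate number as a block, SS64 gave 16, SS40 gave 0 and the line difference gave 0, and the NC groups of the lines gave 23, of which 22 were shared, with *Phgdh* in place of *Trib3*. Pairing by number was not settled in SS40, the eMCs or between the lines, where r was 0.358, -0.221, 0.129 and 0.237 for numbers 1 to 4. A fall below the floor cannot be seen, which limits *Slc7a11* and *Cbs* where they start near it, and *Cth* and *Bcat1* in the tumors.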
